A study of Homo sapiens with 2 samples.

Results

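Described here are 10 genes of the growth-factor immediate early response and its feedback, EGR1 among them. The cells were HT1080, a long-established line from a human fibrosarcoma that carries an activating NRAS mutation. The genes are EGR1, EGR3, FOS, FOSL1, IER2, IER3, SPRY2, SPRY4, DUSP4 and DUSP6, out of 14884 genes named on the array. They were chosen by their known roles and by differences already seen between the same arrays, so the differences below are a description and no test was made of them. All 10 were named by GEO's platform annotation, through 22 of 53617 probe sets, and none was absent. One array (Affymetrix Human Gene 2.0 ST, which reads a transcript through sets of short probes) held RNA of cells infected with virus carrying an shRNA against cMyc, and the other held RNA of cells infected with virus carrying a non-target control shRNA. Both cultures were harvested 48 hours after infection, and the labels name 1 sample of each. They do not say how many hairpins were used or whether infected cells were selected.

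Growth factors bind receptor tyrosine kinases, which switch on RAS and, through RAF and MEK, the kinase ERK. ERK activates transcription factors already present in the cell, among them the ternary complex factors that sit beside SRF (serum response factor) on promoters, and the immediate early genes are then transcribed without new protein synthesis. Some of the genes described here encode transcription factors (EGR1, EGR3, FOS, FOSL1). Others encode proteins that turn the pathway down: Sprouty proteins act between receptor and RAF, and the phosphatases DUSP4 and DUSP6 remove phosphate from ERK. Cells with mutant RAS keep parts of this feedback on without added growth factor.

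The sequences of greatest use here are the stretches before the start of EGR1, the gene farthest from 0, and of SRF, the factor best known for driving it, together with that of SPRY4. Each line gives the 250 bases before the annotated start on the gene's own strand, from RefSeq on GRCh38.p14. EGR1 lies at chr5:138465229-138465478 (plus strand), SRF, in the 1 of its 2 windows that holds the motif, at chr6:43171019-43171268 (plus strand) and SPRY4 at chr5:142324248-142324497 (minus strand). Capitals mark CArG boxes, the motif bound by SRF, in EGR1 and SRF. In SPRY4 they mark the motif GCGNGGGCG, which EGR proteins bind, here on the opposite strand.
EGR1: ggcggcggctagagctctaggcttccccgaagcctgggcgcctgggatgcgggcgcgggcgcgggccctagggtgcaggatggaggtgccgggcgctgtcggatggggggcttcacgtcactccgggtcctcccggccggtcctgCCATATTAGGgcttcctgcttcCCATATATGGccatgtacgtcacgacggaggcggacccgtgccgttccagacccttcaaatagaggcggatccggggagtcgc
SRF: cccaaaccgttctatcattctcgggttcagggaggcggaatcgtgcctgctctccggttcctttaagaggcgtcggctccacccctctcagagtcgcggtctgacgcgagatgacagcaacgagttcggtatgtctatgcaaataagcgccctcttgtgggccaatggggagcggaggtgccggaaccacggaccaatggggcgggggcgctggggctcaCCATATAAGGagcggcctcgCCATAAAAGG
SPRY4: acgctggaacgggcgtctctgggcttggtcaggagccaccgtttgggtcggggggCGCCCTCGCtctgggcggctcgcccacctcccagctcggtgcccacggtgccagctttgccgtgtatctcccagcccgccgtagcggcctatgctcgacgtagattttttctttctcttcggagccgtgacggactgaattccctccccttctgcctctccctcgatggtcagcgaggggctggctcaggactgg

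EGR1 held CArG boxes from 105 to 96 and from 83 to 74 bases before its start. SRF held them from 30 to 21 and from 10 to 1 bases before its start. Searched on both strands, the CArG box occurred in 407 of 35116 windows of this length (1.16%), and 11 windows (0.0313%) held 2 or more. Of the 10 genes, 6 were in the promoter table, with 8 windows in all, and of these only EGR1 held a CArG box. GCGNGGGCG occurred in 8.41% of all windows and, among the 6 genes, in EGR1, SPRY2 and SPRY4. The printed window of SRF, which is not a member, also held it, from 49 to 41 bases before the start, without capitals there. The AP-1 motif TGANTCA (6.57% of windows), the MYC and MAX motif CACGTG (6.34%), the cAMP response motif TGACGTCA (1.65%) and the interferon response motif GAAANNGAAA (3.02%) were found in none of the 8 windows. A match is a string of letters, not a bound site. Shorter or variant forms of these motifs, enhancers and more distant promoter sequence were not searched.

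EGR1 and SPRY4 were more than 2-fold higher with cMyc shRNA, SPRY2 was just under 2-fold higher, and the other 6 measured members lay within 1.5-fold of their control values. A gene was counted as measured where its mean over both arrays was at or above the median of all probe sets (3.70 on the log2 scale), and 9 of the 10 were. Of these 9, 2 were higher by 2-fold or more and 0 were lower by that much, whereas 2.01% of all 10258 measured genes were that much higher and 4.0% that much lower. At 1.5-fold, 3 members were higher and 0 lower, beside 8.77% and 11.9% of all measured genes. Because the same differences entered the choice of members, nothing is read from these counts. The median log2 difference was 0.18 over the 9 members and -0.01 over all measured genes. The members were thus not raised as a block: their differences ran from -0.30 for DUSP4 to 3.93 for EGR1, and 5 of 9 lay within 0.34 of 0. That value, 0.34, is the technical SD of 1 log2 difference, taken from how far the 2 brightest probe sets of a gene lay apart in 416 genes. It is the nearest thing to a repeat measurement in the data and holds no variation between cultures. Its pairs include probe sets of nearly the same values, as for IER3, and probe sets far apart, as for EGR1 (2.59). It is therefore a rough guide to size only. In bulk RNA a change in a few cells and a change in all cells cannot be told apart.

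**Figure D1:**
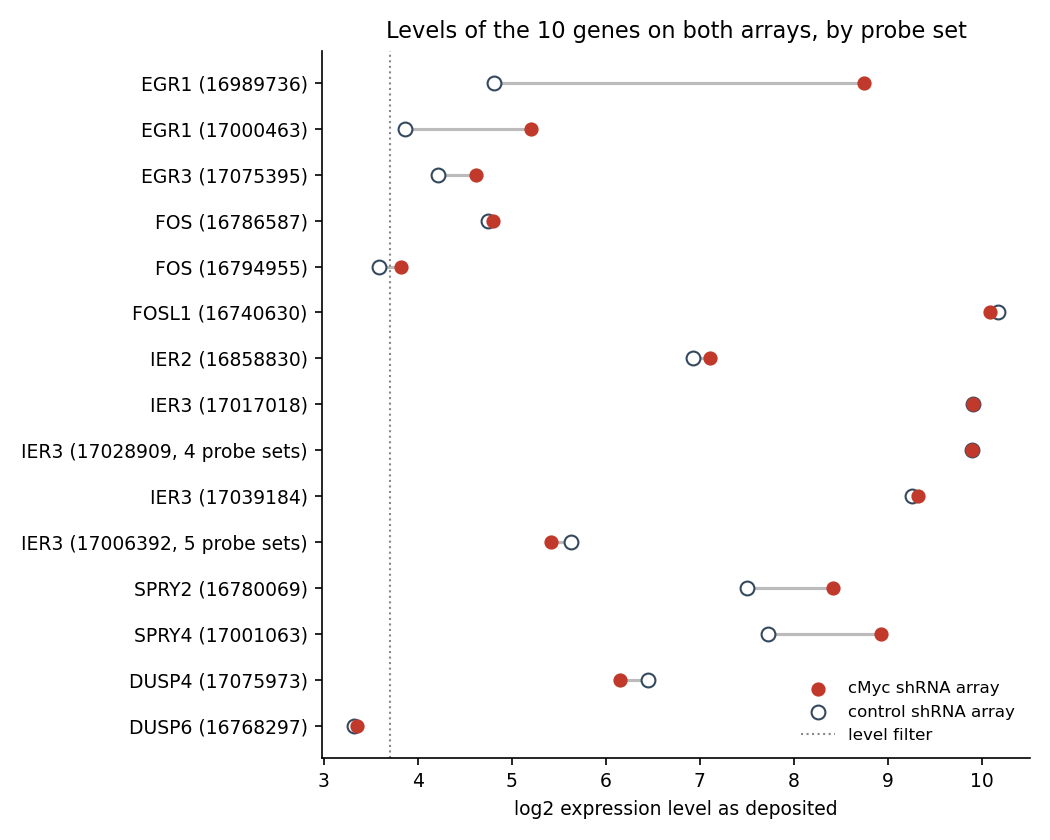
Log2 expression level (x axis) of each probe set of the 10 genes (rows), with filled points for the cMyc shRNA array and open points for the control shRNA array, 1 array each. Probe sets of identical values share a row, and the dotted line is the level filter at 3.70. The gap is widest for EGR1 probe set 16989736, while the points of FOSL1, DUSP6 and the brightest probe sets of IER3 and FOS nearly coincide.

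EGR1, a zinc finger transcription factor induced within minutes by growth factors and stress, read 8.74 on the cMyc shRNA array and 4.81 on the control array in log2 units (probe set 16989736). The difference was 3.93, or 15.2-fold higher, and only 8 of the 10258 measured genes had a larger one. Its other probe set, 17000463, read 5.20 with cMyc shRNA and 3.86 with control shRNA, a difference of 1.34 (2.52-fold higher). Both probe sets were thus higher on the cMyc shRNA array, but they were 2.59 log2 units apart in the size of the difference.

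The probe sets of EGR1 differ in where their identifiers stand. Among the 30 named probe sets with the nearest identifiers, 23 of the 24 with a strand in RefSeq were of plus-strand genes for probe set 16989736, and 25 of 26 were of minus-strand genes for 17000463. EGR1 is a plus-strand gene. Over the whole array, 95.8% of 11491 named probe sets belonged to a gene on the strand of most of their neighbours. The strand read by 17000463 is not given in the sources used here and was not tested.

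EGR3, a relative of EGR1 that shares its DNA-binding motif, read 4.62 with cMyc shRNA and 4.22 with control shRNA, a log2 difference of 0.40. Its signal was low on both arrays, and 1706 measured genes had a larger difference. EGR4 fell below the level filter, at 3.41 with cMyc shRNA and 3.22 with control shRNA, and EGR2 had no named probe set here. In this family a difference past 2-fold was thus seen for EGR1 alone of the 2 genes that could be measured.

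FOS, which pairs with JUN proteins to form AP-1 and is the classic partner of EGR1 in the immediate early response, was nearly level. It read 4.80 with cMyc shRNA and 4.74 with control shRNA (probe set 16786587), a log2 difference of 0.06. The signal of FOS was low on both arrays, so this difference says little about the transcript. Its other probe set, whose mean of 3.70 lay just under the level filter before rounding, read 3.82 with cMyc shRNA and 3.58 with control shRNA. FOSL1 encodes FRA1, a longer-lived FOS protein that accumulates in cells with active RAS. It read 10.1 with cMyc shRNA and 10.2 with control shRNA, a log2 difference of -0.08. Neither FOS nor FOSL1 therefore differed by more than the technical SD.

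The other AP-1 genes also stayed within 2-fold. FOSB was the highest, at 6.30 with cMyc shRNA and 5.50 with control shRNA, a difference of 0.80, although its other probe set differed by 0.07. JUND had a difference of 0.59 and JUNB of 0.13. FOSL2 had -0.06 and JUN -0.16. All 7 FOS and JUN genes were measured, 4 above and 3 below 0, with a median of 0.06.

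IER2, a small nuclear protein induced by serum, read 7.10 with cMyc shRNA and 6.92 with control shRNA, a log2 difference of 0.18. IER3, a stress-inducible protein that influences survival and ERK signalling, was read by 11 probe sets with only 4 distinct pairs of values. Its representative probe set, 17017018, gave 9.90 on both arrays. Another 4 probe sets shared the values 9.90 with cMyc shRNA and 9.89 with control shRNA, and probe set 17039184 gave 9.32 with cMyc shRNA and 9.26 with control shRNA. The remaining 5 shared 5.42 with cMyc shRNA and 5.63 with control shRNA, a difference of -0.22. Identical values in several probe sets show that these are not separate measurements, and no IER3 probe set differed by more than the technical SD. IER5, a related gene, had a difference of -0.48.

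SPRY4 and SPRY2, feedback inhibitors that dampen the path from receptor to ERK and are themselves induced by ERK, were both higher with cMyc shRNA. SPRY4 read 8.92 with cMyc shRNA and 7.72 with control shRNA, a log2 difference of 1.20 (2.30-fold higher), and 127 measured genes had a larger one. SPRY2 read 8.42 with cMyc shRNA and 7.50 with control shRNA, a difference of 0.92 (1.89-fold higher), and 276 had a larger one. SPRY2 was thus the member just short of the 2-fold rule and SPRY4 the one just past it. SPRY3 had differences of 0.40 and 0.32 on its 2 probe sets, so all 3 measured Sprouty genes lay above 0. SPRY1 had no named probe set here.

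DUSP4 and DUSP6 did not share the direction of the Sprouty genes beyond the technical SD. DUSP4, a nuclear phosphatase induced by ERK, read 6.15 with cMyc shRNA and 6.45 with control shRNA, a difference of -0.30. DUSP6, a cytoplasmic phosphatase specific for ERK and a common readout of ERK activity, read 3.35 with cMyc shRNA and 3.32 with control shRNA. Both values of DUSP6 lay below the level filter, so its difference of 0.03 says little about the transcript. It was the 1 member that was not measured.

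The wider phosphatase family held larger differences than DUSP4. Of 18 listed DUSP genes 17 were measured. Of these 1 was 2-fold higher or more and 0 were 2-fold lower, beside 2.01% and 4.0% of all measured genes. Their median difference was 0.17. DUSP16, which acts mainly on the stress kinases JNK and p38, was the highest at 6.33 with cMyc shRNA and 4.81 with control shRNA, a difference of 1.52 (2.86-fold higher). DUSP5, a nuclear ERK phosphatase, came next at 8.60 with cMyc shRNA and 7.63 with control shRNA, a difference of 0.97 (1.01 after quantile normalization), although its other probe set differed by 0.13. DUSP7, a cytoplasmic ERK phosphatase like DUSP6, was the lowest at 5.79 with cMyc shRNA and 6.78 with control shRNA, a difference of -0.995 that falls just short of 2-fold and passes it, at -1.04, with the arrays centred on their medians. DUSP1, DUSP2, DUSP8 and DUSP9 differed by 0.21, 0.32, 0.17 and 0.31, and DUSP10 by -0.52. Within each functional class of the family, the nuclear inducible, the cytoplasmic ERK-specific and the JNK and p38 phosphatases, measured genes thus lay on both sides of 0. However, the only measured nuclear gene below 0, DUSP4, and the only measured cytoplasmic gene above 0, DUSP9, lay within the technical SD.

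**Figure D2:**
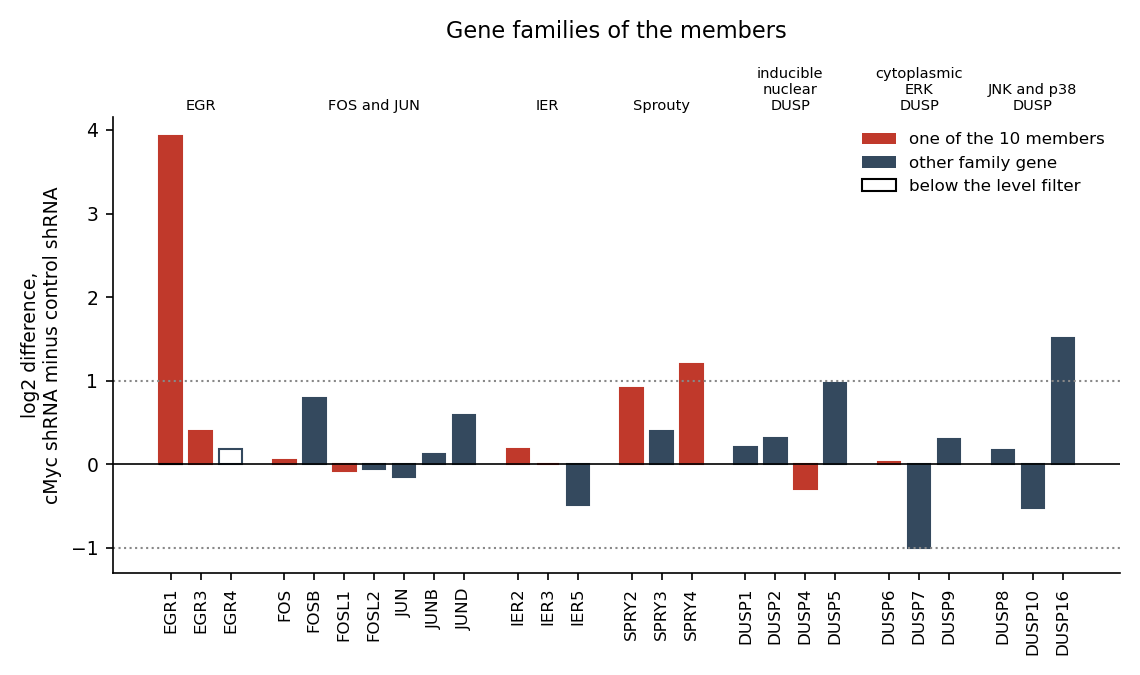
Log2 difference, cMyc shRNA minus control shRNA (y axis), of each named gene in the families of the 10 genes, which are drawn in red, and the dotted lines mark 2-fold. EGR1, SPRY4 and DUSP16 pass the upper line, DUSP7 reaches just short of the lower one, and open bars (EGR4, DUSP6) are below the level filter.

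MYC is both an immediate early gene and the target of the shRNA. It read 6.16 with cMyc shRNA and 7.09 with control shRNA, a log2 difference of -0.93, by 1 probe set. A total of 13 other immediate early transcription factors were measured, MYC among them, with a median of -0.06. Of these 13, 0 passed 2-fold in either direction, beside 2.01% of all measured genes higher and 4.0% lower. KLF2 was the lowest at -0.96, or -1.01 with both arrays centred on their medians, and FOSB the highest. NR4A1, NR4A2, NR4A3, EGR2, HES1 and BHLHE40 had no named probe set here. Of 14 measured immediate early effectors 1 was higher by 2-fold or more and 0 were lower by that much, and their median was -0.01. The 1 was PTGS2, the inducible cyclooxygenase, at 6.31 with cMyc shRNA and 3.90 with control shRNA, a difference of 2.41 (5.32-fold higher), and GEM, a small GTPase, was the lowest at -0.57.

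The regulators above the immediate early genes were measured in part. SRF itself read 7.23 with cMyc shRNA and 8.79 with control shRNA, a log2 difference of -1.56 (2.95-fold lower), and 119 measured genes had a lower difference. SRF and EGR1, both with a pair of CArG boxes in the window printed above, thus differed in opposite directions. Of the 9 measured factors in the upstream list, SRF was the 1 gene past 2-fold, in the lower direction, and the median was -0.20. Over all measured genes 2.01% were 2-fold higher or more and 4.0% that much lower. The SRF coactivators MRTFA and MRTFB had -0.23 and -0.20, and MED23, a Mediator subunit that ERK-activated ELK1 binds, was highest at 0.66. ELK1, ELK3 and ELK4 had no named probe set here.

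**Figure D3:**
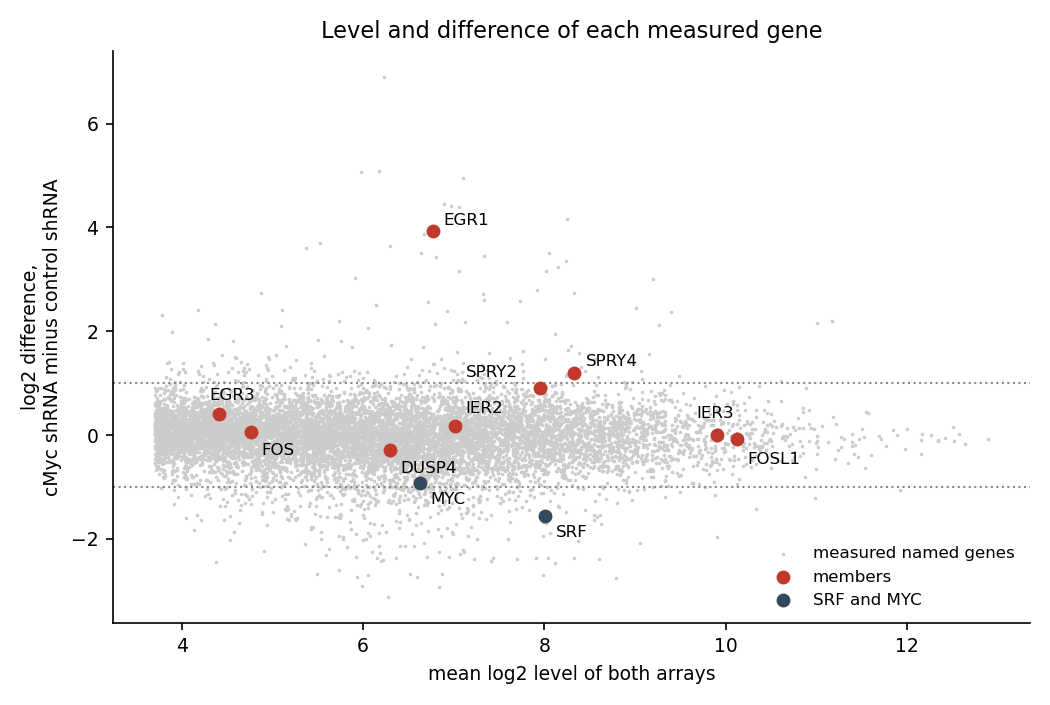
Mean log2 level of both arrays (x axis) against the log2 difference, cMyc shRNA minus control shRNA (y axis), for the 10258 measured genes in grey, the 9 measured members in red and SRF and MYC in dark blue. EGR1 lies far above the 2-fold line (dotted), SPRY4 just above and SPRY2 just below it, and the other members lie within the grey band.

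Of 18 measured genes in the cascade, from adaptors to ERK-activated kinases, 0 were higher and 0 lower by the 2-fold rule. Their median was 0.13. Over all measured genes 2.01% were that much higher and 4.0% that much lower, so little is read from 0 in a list this short. FRS3, an adaptor of fibroblast growth factor receptors, was highest at 0.71 and the kinase MAP2K2 (MEK2) lowest at -0.74. MAP2K1 (MEK1) had -0.18, MAPK3 (ERK1) 0.17 and HRAS -0.70. The 13 measured receptor tyrosine kinases likewise had 0 past 2-fold and a median of -0.06, with EGFR highest at 8.96 with cMyc shRNA and 8.18 with control shRNA (0.77) and the collagen receptor DDR2 lowest at -0.42. Among 12 measured growth factor ligands 1 was lower by 2-fold and 0 were higher, and the median was -0.29. That ligand was NRG1, a neuregulin that binds ERBB receptors, at 6.22 with cMyc shRNA and 7.24 with control shRNA (-1.01, or -0.95 after quantile normalization). HBEGF, a ligand of EGFR, was the highest at 0.62.

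Other feedback inhibitors and ERK-driven genes lay within 2-fold, as did most measured genes. Over all measured genes 2.01% were 2-fold higher or more and 4.0% that much lower. Of 13 other measured feedback inhibitors 0 passed 2-fold in either direction, with a median of 0.09. RASA2, a GTPase-activating protein for RAS, was highest at 8.55 with cMyc shRNA and 7.61 with control shRNA (0.94). SOCS2, an inhibitor of cytokine receptor signalling, was lowest at -0.54, from a low signal of 4.43 with cMyc shRNA and 4.97 with control shRNA. Of 15 measured genes commonly used as ERK output 0 passed 2-fold, with a median of -0.04. ETV4, ETV5 and ETV1, transcription factors often induced by ERK, differed by -0.80, 0.14 and 0.44. The cyclin gene CCND1 differed by -0.38, ODC1 was lowest at -0.81, and PROS1 was highest at 0.76. SPRED1, SPRED2 and PHLDA1 had no named probe set here.

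Genes described downstream of EGR1 and AP-1 were mixed. NAB2, a corepressor that EGR1 induces and that restrains it, was the highest of its list at 6.25 with cMyc shRNA and 5.47 with control shRNA, a log2 difference of 0.79, and its relative NAB1 had 0.22. The 8 measured genes in that list had a median of 0.10. Of these, 0 were 2-fold higher and 1 was 2-fold lower, beside 2.01% and 4.0% of all measured genes. The 1 was THBS1, an extracellular matrix glycoprotein, at 11.4 with cMyc shRNA and 12.5 with control shRNA (-1.06, or -0.999 after loess). The 6 measured AP-1 targets had 0 past 2-fold and a median of -0.08, from -0.59 for VIM on its brightest probe set, with -1.02 on the lowest of its 3, to 0.13 for TIMP1.

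**Figure D4:**
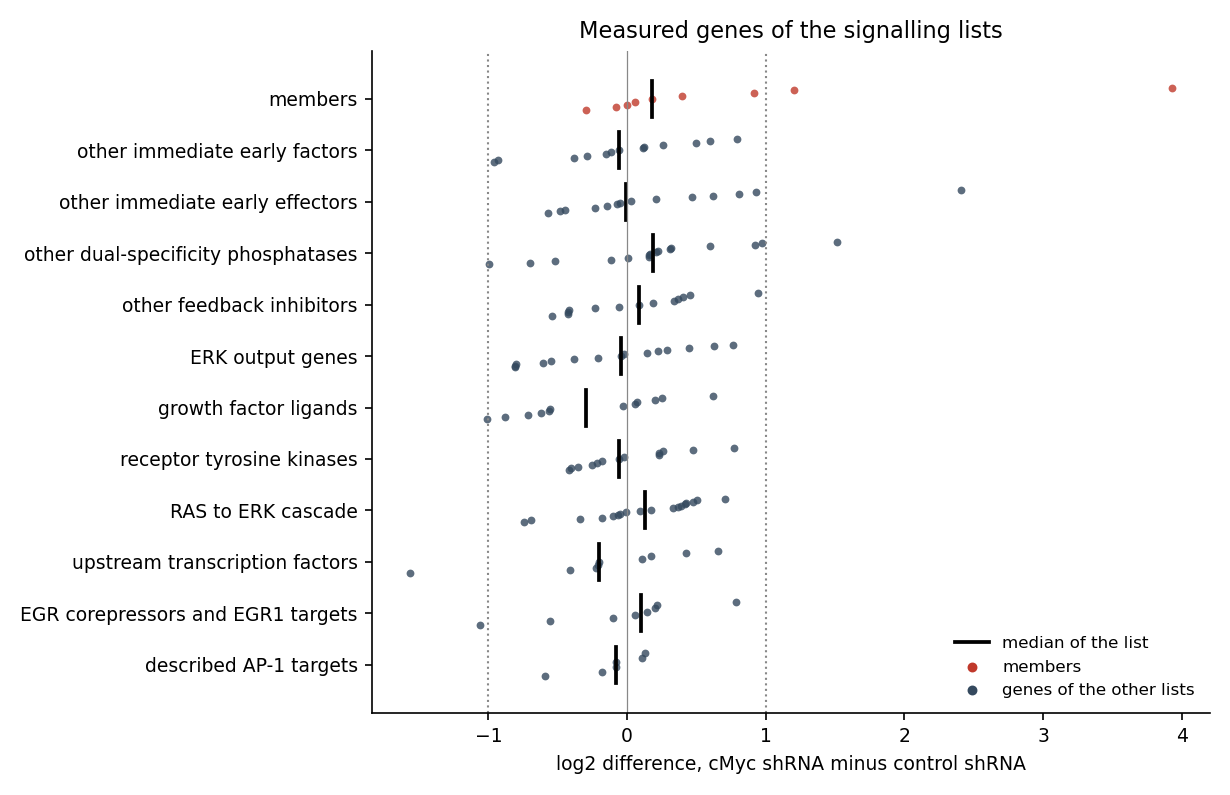
Log2 difference, cMyc shRNA minus control shRNA (x axis), of each measured gene in the members' list (red) and the other signalling lists (dark blue), with a black bar at each list's median and dotted lines at 2-fold. List medians lie between -0.29 and 0.19, and EGR1, PTGS2, DUSP16, SPRY4, SRF, THBS1 and NRG1 are the genes beyond the dotted lines.

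By the values on both arrays, the genes most like EGR1 were DDX60, TLR3 and DDX60L. Their Euclidean distances from EGR1 over the 2 arrays were 0.147, 0.351 and 0.351 log2 units. DDX60, an antiviral RNA helicase, read 8.61 with cMyc shRNA and 4.74 with control shRNA, and TLR3, a sensor of double-stranded RNA, read 8.40 with cMyc shRNA and 4.89 with control shRNA. With 2 arrays this likeness is a matching pair of values and nothing more.

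The array medians were 3.73 for cMyc shRNA and 3.68 for control shRNA. The cell line's mesenchymal identity was visible in part: of 16 markers 8 were named and 7 measured, with S100A4 below the level filter. FN1 had the highest level, at 12.6 with cMyc shRNA and 12.4 with control shRNA (0.15). By difference, FBN1 was the highest (0.44), at 9.23 with cMyc shRNA and 8.78 with control shRNA. ENG had the lowest difference (-0.69), at 8.30 with cMyc shRNA and 8.99 with control shRNA. The summed log2 level of the 7 measured markers was 62.6 with cMyc shRNA and 62.9 with control shRNA. Epithelial markers had 5 of 12 measured, summing to 27.9 with cMyc shRNA and 29.4 with control shRNA. CLDN7 had the highest difference (0.53), at 5.15 with cMyc shRNA and 4.62 with control shRNA. KRT18 had the lowest difference (-0.69), at 8.41 with cMyc shRNA and 9.09 with control shRNA, and its other probe set differed by 0.12. KRT8, KRT19 and CLDN3 also passed the level filter, and EPCAM did not. Haematopoietic markers had 2 of 10 measured, summing to 9.90 with cMyc shRNA and 10.8 with control shRNA, with SPI1 at -0.08 and CSF1R at -0.81. None of these marker genes passed 2-fold in its brightest probe set.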

How the data were processed

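RNA of 2 HT1080 cultures, 1 with cMyc shRNA and 1 with control shRNA, was measured on 1 array each. The authors deposited log2 expression values made with Affymetrix Expression Console, per the submitters' processing notes; not given in the sources used here are its version, background correction and normalization. The log base was inferred from the range (1.41 to 13.9). Genes were named through GEO's platform annotation, which gave 1 symbol to 16098 probe sets (30.0%), several to 0 and none to 37519. The brightest probe set by mean of both arrays stood for a gene. Differences are cMyc shRNA minus control shRNA, and a fixed rule of 2-fold counted genes, since 1 array a group allows no test. Precision is limited by having 2 arrays, without detection calls.

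The members and the 14 lists (256 genes) were chosen with earlier results of these data known, and the gene families were grouped after their values were seen. The text names all members, MYC, every list gene past 2-fold and the 3 genes nearest to EGR1. Of a list it otherwise names the genes with the highest and the lowest difference. Other names were chosen after their values were seen. Calculations used pandas 2.3.3, statsmodels 0.14.6 and numpy 2.4.6 under Python 3.11.15 and were tested on simulated data. Other scalings, level filters, probe set rules and a 1.5-fold rule were tried.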

Additional observations from a re-analysis of the deposited data

How the results depend on the processing

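No paired analysis was possible because there is 1 array in each group and no test. Under centring, quantile normalization, loess, no level filter, a level filter at the 75th percentile and the mean over probe sets, 2 members were at least 2-fold higher and 0 lower each time, and the members' median log2 difference lay between 0.12 and 0.25. The 1.5-fold rule gave 3 higher. Of 60 values of single members, 58 moved by less than the technical SD. Both exceptions were EGR1, at 2.63 with the mean over its probe sets and 1.34 with the probe set 17000463, an alternative added after seeing the data. Many of the 60 could not have moved, so the count says little. A level filter leaves a gene's own value as it is, and so does the mean where a gene has 1 probe set. Centring shifts all genes by the same small amount. The technical SD was 0.37 when only the 337 genes with probe sets 0.1 or more apart in level were used, also added after seeing the data. All 77 list medians moved by less than the technical SD, but that SD is larger than most of the medians, so this is a loose standard. The growth factor ligand median, -0.29 as deposited, was -0.03 without a level filter and -0.56 with the filter at the 75th percentile. The epithelial marker median went from -0.46 to -0.13 without a level filter. That of the other immediate early transcription factors changed sign there, from -0.06 to 0.03, as did that of the receptor tyrosine kinases, from -0.06 to 0.01. The median of the other immediate early effectors, -0.01 as deposited, was 0.05 with quantile normalization and 0.02 with loess. Of 168 list counts 9 changed by more than 1.5 times, each by 1 gene. Those under other scalings came from 5 genes near the 2-fold line, KLF2 and DUSP7 with centring, DUSP5 and NRG1 with quantile normalization or loess, and THBS1 with loess. The filter at the 75th percentile left out PTGS2 and DUSP16 by their level.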

Other observations

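FOSB and DUSP5, relatives of the members, also had a larger difference on 1 probe set than on the other. In the members FOS and IER3 the probe sets lay less than the technical SD of 0.34 apart. FOSB, a plus-strand gene, had a log2 difference of 0.80 on probe set 16863287, whose neighbours by identifier were of plus-strand genes in 20 of 21 cases, and of 0.07 on probe set 16873329, whose neighbours were of minus-strand genes in 25 of 26 cases. DUSP5 had 0.97 on probe set 16709128, with 23 of 24 neighbours of plus-strand genes, and 0.13 on probe set 16718386, with 23 of 24 of minus-strand genes. FOS had 0.06 on probe set 16786587 (26 of 28 of plus-strand genes) and 0.24 on probe set 16794955 (24 of 27 of minus-strand genes). IER3 probe set 17017018 stood among minus-strand genes (25 of 25) and had a difference of 0.00, and probe set 17006392 stood among plus-strand genes (26 of 27) and had -0.22. Over the array, 487 named probe sets of 447 genes stood among genes of mostly the other strand. Whether these probe sets read the opposite strand was not tested, nor was whether low signal narrows their differences.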
